A study of Mus musculus with 4 samples.

Results

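The collagen chain genes were taken from the deposited expression table of cultured mouse lung endothelial cells as every row whose symbol is Col, a type number, the letter a and a chain number. This gave 44 chains among 23997 genes. The cells were endothelial cells of the lung of C57BL/6 mice, grown in EBM-2 medium with 10% serum. For 48 h they carried either a control siRNA or one directed at Nr3c1, the gene of the glucocorticoid receptor (GR), and in each arm dexamethasone (DEX), a synthetic glucocorticoid, was given at 100 nM for 18 h or left out. The arms are called control cells and GR siRNA cells, and where 2 values are given for an arm the first is without and the second with DEX. The sources used here do not say how the cells were isolated or whether they were pooled from several animals.

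Collagens are secreted proteins in which 3 chains with glycine at every turn of the helix wind around each other, and each gene encodes 1 chain. Type IV collagen forms the sheet-like scaffold of the basement membrane on which endothelial cells sit, and types XV and XVIII are attached to that zone. Fibrillar collagens, types I, III and V among them, build the fibres of connective tissue and are mainly made by fibroblasts, the connective tissue cells. Other collagens form beaded filaments (type VI), hexagonal networks (type VIII), links on the surface of fibrils (the FACIT group) or span the cell membrane (types XIII, XVII, XXIII and XXV). GR is a transcription factor, and glucocorticoids are known to lower collagen production in several connective tissues. The comparisons ask how the chains differ when less GR mRNA is present and when GR is activated.

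Values are FPKM, fragment counts scaled to transcript length and sequencing depth, so levels of different chains can be set side by side. The series design states 3 replicates per condition, while the table holds 1 column per condition, so values carry neither an SD nor a p-value and each difference is one between 2 columns. The size of the steps between low FPKM values placed the depth at about 35500000 and 50900000 fragments in control cells and 53000000 and 43000000 in GR siRNA cells. Nr3c1 was at 14.4 and 14.3 FPKM in control cells against 5.45 and 5.32 FPKM in GR siRNA cells. All 12 endothelial markers reached 1 FPKM in every column, among them Pecam1 (275 to 282 FPKM) and Cdh5 (384 to 436 FPKM).

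Of the 44 chains, 13 were at 1 FPKM or more, and these reached that level in all 4 columns. The remaining 31 were below 1 FPKM in all 4, so no chain crossed the level with a treatment. Of all 23997 genes, 11095 to 11205 were at that level in a given column and 11445 in at least 1 column. How many of all genes crossed the level between columns was not counted, so the absence of a crossing cannot be read as particular to the collagens. The expressed chains were 5 of 8 of the basement membrane class (Col4a1, Col4a2, Col4a5, Col15a1 and Col18a1), 4 of 11 fibrillar chains (Col3a1, Col5a1, Col5a2 and Col5a3) and 4 of 25 others (Col6a3, Col8a1, Col13a1 and Col23a1). No FACIT chain, of 9, was among them. Just inside the level stood Col4a5, whose lowest value was 1.14 FPKM, and just outside it stood Col7a1, the chain of anchoring fibrils, whose highest value was 0.690 FPKM.

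**Figure D1:**
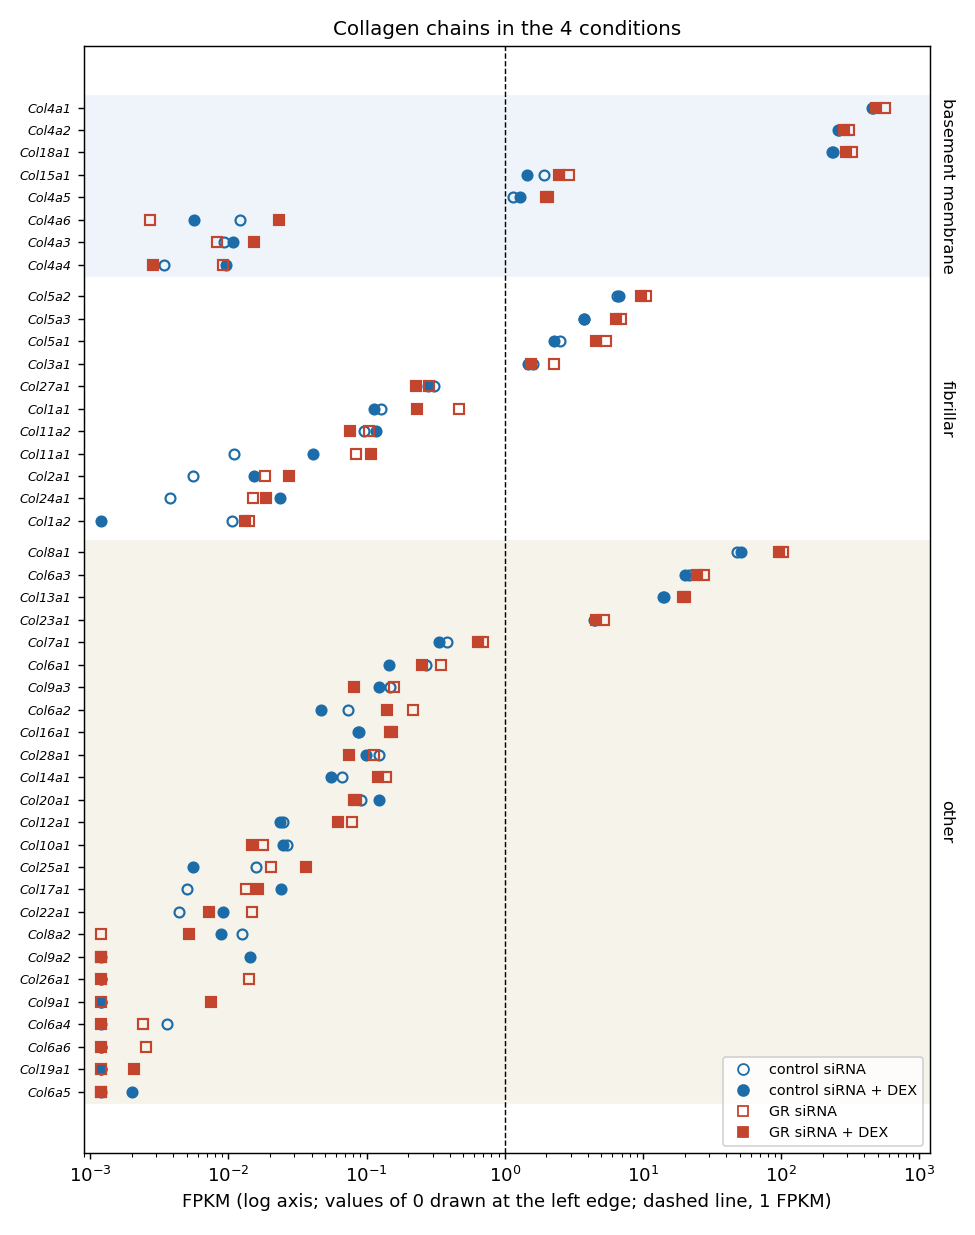
Deposited FPKM (log axis) of the 44 collagen chains, 1 point per condition, ordered by mean level within the basement membrane, fibrillar and other classes; circles stand for control cells and squares for GR siRNA cells, open for no DEX and filled for DEX. The 13 chains right of the dashed line at 1 FPKM are the same in every column, from Col4a5 at 1.14 FPKM to Col4a1 at 561 FPKM.

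Basement membrane collagens made up most of the collagen chain transcripts. The 44 chains summed to 1068 and 1053 FPKM in control cells and 1386 and 1239 FPKM in GR siRNA cells. The basement membrane class held 90.3% and 89.97% of these sums in control cells against 86.7% and 86.3% in GR siRNA cells. Its share was lower in both GR siRNA columns although its own sum was higher there, at 1202 and 1069 FPKM against 964 and 947 FPKM. Fibrillar chains held 1.40% in both control columns against 1.89% and 1.84% in GR siRNA cells. Within the remainder Col8a1 alone held 4.496% and 4.86% in control cells against 7.46% and 7.81% in GR siRNA cells.

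**Figure D2:**
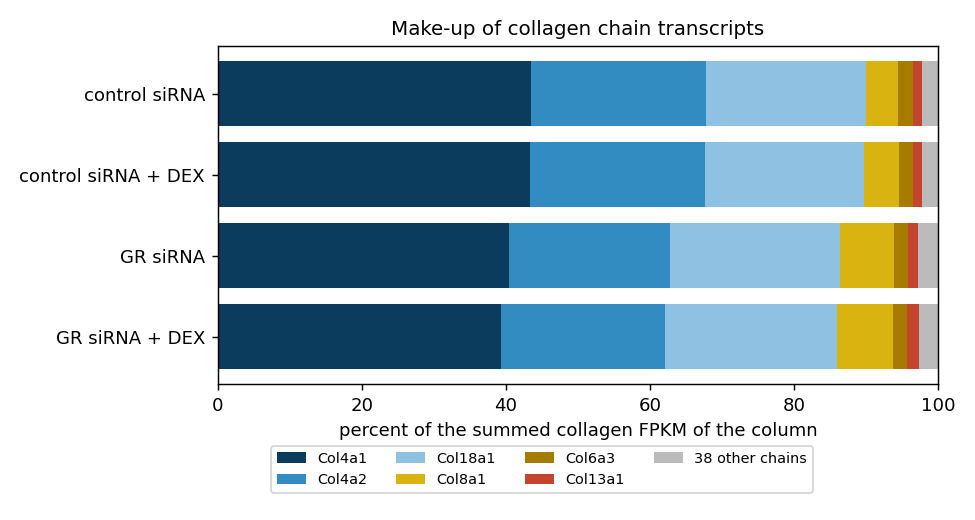
Percent of the summed FPKM of all 44 collagen chains held by each of the 6 most abundant chains and by the other 38 together, 1 bar per condition. Col4a1, Col4a2 and Col18a1 fill most of every bar, and the Col8a1 segment widens from 4.86% in control cells to 7.81% in GR siRNA cells, both with DEX.

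Every expressed chain was higher in GR siRNA cells than in control cells, in both DEX states. On the log2(FPKM + 1) scale the median difference of the 13 chains was 0.46 without DEX, with a range of 0.18 to 1.09, and 0.39 with DEX, with a range of 0.04 to 0.91. Over all genes that reached 1 FPKM in either column of a comparison, the medians were −0.01 and −0.01; 47.2% and 48.2% of those genes were higher and 52.8% and 51.8% lower by any amount. At 1.5-fold on that scale, 4 chains were higher without DEX and 3 with DEX, against 2.36% and 2.36% of all genes, and none was lower, against 2.54% and 2.62%. The 3 chains past 1.5-fold in both DEX states were Col8a1, Col5a1 and Col5a3, and 1.37% of all genes were that much higher in both, with 1.63% that much lower. For 12 of the 13 chains both GR siRNA columns lay above both control columns, an order held by 32.3% of all genes, with 36.6% in the opposite order. Col3a1 was the exception. By class, the medians without and with DEX were 0.41 and 0.34 for basement membrane, 0.68 and 0.56 for fibrillar and 0.42 and 0.36 for other chains. The comparisons without and with DEX share no column.

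On the log2(FPKM + 1) scale Col8a1, Col5a1 and Col5a3 were the 3 chains past 1.5-fold in both DEX states. The stretches just before their start sites are shown for that reason. They read in the direction of transcription and are the RefSeq sequences of GRCm38.p6, 250 bases each, at chr16:57754738-57754987 (minus strand), chr2:27886175-27886424 (plus strand) and chr9:20815068-20815317 (minus strand). Capitals mark the GC box GGGCGG and the CCAAT box CCAAT on either strand.
Col8a1: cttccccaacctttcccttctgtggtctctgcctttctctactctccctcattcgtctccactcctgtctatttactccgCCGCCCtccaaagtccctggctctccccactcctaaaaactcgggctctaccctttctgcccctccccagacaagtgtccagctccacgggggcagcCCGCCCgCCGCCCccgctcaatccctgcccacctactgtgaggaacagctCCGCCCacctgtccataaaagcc
Col5a1: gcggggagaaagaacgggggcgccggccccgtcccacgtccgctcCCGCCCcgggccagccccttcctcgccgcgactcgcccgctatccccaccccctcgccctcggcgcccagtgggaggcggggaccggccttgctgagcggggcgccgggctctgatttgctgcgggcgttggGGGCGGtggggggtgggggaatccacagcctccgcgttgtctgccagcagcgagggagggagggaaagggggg
Col5a3: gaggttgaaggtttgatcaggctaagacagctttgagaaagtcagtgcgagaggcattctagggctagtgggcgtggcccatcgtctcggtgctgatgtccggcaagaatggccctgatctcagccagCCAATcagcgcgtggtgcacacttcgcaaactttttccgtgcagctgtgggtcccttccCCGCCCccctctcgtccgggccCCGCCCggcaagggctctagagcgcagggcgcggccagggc
The Col8a1 stretch held 4 GC boxes, that of Col5a1 2, and that of Col5a3 2 with 1 CCAAT box. RefSeq windows were at hand for 35 of the 44 chains, 38 windows in all. A GC box was present in 22 of these 38 (57.9%), against 32.7% of all 32851 windows of the same length, and a CCAAT box in 34.2% against 33.8%. The palindrome to which GR dimers bind, AGAACA and TGTTCT spaced by any 3 bases, was in none of the 38 and in 3 of all windows. Its left part AGAACA, searched on both strands and contained in the palindrome, was in 2 of the 38, those of Col20a1 and Col9a1, and in 16.1% of all windows. The TATA box TATAAA was in 13.2% against 12.4%, and CAGAC, the SMAD element, in 44.7% against 42.2%. Such matches are letters in a window and do not show that a factor binds there.

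Col8a1 encodes the alpha 1 chain of type VIII collagen, a short-chain collagen first described in endothelial cells, and is a single gene on the minus strand of chromosome 16 from 57624258 to 57754737 (mm10). It was the fourth most abundant chain. Its level was 48.0 and 51.2 FPKM in control cells against 103 and 96.8 FPKM in GR siRNA cells. Both GR siRNA columns were thus above both control columns, as for 32.3% of all genes. The ratios were 2.16 without and 1.89 with DEX, and the log2 differences 1.09 and 0.91. The second chain of this type, Col8a2, was at 0.0126 and 0.00880 FPKM in control cells and 0 and 0.00522 FPKM in GR siRNA cells. Each of these corresponds to an estimated 2 fragments or fewer, so its differences cannot be read at this depth.

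The type V chains, which copolymerise with other fibrillar collagens and limit the width of fibrils, were the 3 most abundant of the 4 expressed fibrillar chains. Col5a1 (chromosome 2, 27886425 to 28039514) was at 2.50 and 2.26 FPKM in control cells against 5.42 and 4.53 FPKM in GR siRNA cells. Its ratios were 2.17 and 2.01. Col5a3 (chromosome 9, 20770050 to 20815067) was at 3.75 and 3.71 FPKM against 6.93 and 6.32 FPKM, with ratios of 1.85 and 1.70. Col5a2 (chromosome 1, 45374321 to 45503282), the most abundant of them, was at 6.50 and 6.68 FPKM against 10.6 and 9.69 FPKM, with ratios of 1.62 and 1.45. All 3 type V chains were therefore higher in the GR siRNA columns with no overlap, an order held by 32.3% of all genes. The level of Col5a2 relative to Col5a1 was 2.60 and 2.95 in control cells and 1.95 and 2.14 in GR siRNA cells. Exons of 2810430I11Rik and Gm13372 on the opposite strand overlap 212 of the 8490 exonic bases of Col5a1, and the strand setting is not known, so fragments there cannot be assigned. Smaller overlaps with other annotated exons touched Col3a1 (141 bases), Col4a2 (65 bases, 22 of them in Col4a1) and Col15a1 (14 bases).

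Col3a1, the chain of type III collagen in vessel walls and soft tissue, lies on chromosome 1 at 45311538 to 45349706. It was at 1.59 and 1.47 FPKM in control cells against 2.26 and 1.54 FPKM in GR siRNA cells. The GR siRNA column without DEX stood apart from the other 3, which lay between 1.47 and 1.59 FPKM. These are about 315 and 417 fragments in control cells and 666 and 367 in GR siRNA cells.

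Type I collagen, the main collagen of fibroblasts, was nearly absent. Col1a2 was at 0.0105 and 0 FPKM in control cells and 0.0141 and 0.0131 FPKM in GR siRNA cells, an estimated 4 fragments or fewer in each column. Col1a1 was at 0.127 and 0.113 FPKM (about 27 and 34 fragments) in control cells against 0.466 and 0.230 FPKM (about 147 and 59 fragments) in GR siRNA cells. The 95% exact Poisson intervals of these fragment numbers, taken in the same order and covering counting error only, were 17.8 to 39.3, 23.5 to 47.5, 124 to 173 and 44.9 to 76.1. Without DEX the Col1a1 level was 3.66 times as high in GR siRNA cells, and with DEX 2.03 times. The cartilage chains Col2a1, Col11a1 and Col11a2 did not exceed 0.118 FPKM, Col24a1 was at most 0.0236 FPKM, and Col27a1 ranged from 0.229 to 0.305 FPKM.

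Among the basement membrane chains, Col4a1 and Col4a2, the pair that forms the type IV network of nearly all basement membranes, were the most and second most abundant of all chains. They lie head to head on chromosome 8, Col4a1 on the minus strand at 11198423 to 11312826 and Col4a2 on the plus strand at 11312805 to 11449287, so that their annotated first exons overlap by 22 bases. Col4a1 was at 464 and 456 FPKM in control cells against 561 and 487 FPKM in GR siRNA cells. Col4a2 was at 259.9 and 256 FPKM against 310.1 and 283 FPKM. The ratios of GR siRNA to control cells were 1.21 and 1.07 for Col4a1 and 1.19 and 1.10 for Col4a2, among the smallest of the 13 chains. Both chains kept nearly the same proportion to each other, with 1.78 times as much Col4a1 as Col4a2 in both control columns and 1.81 and 1.72 times in GR siRNA cells.

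The other type IV genes are arranged in the same way and behaved differently as pairs. Col4a3 and Col4a4, which serve the basement membranes of kidney and lung alveoli, did not exceed 0.0154 and 0.00956 FPKM. On the X chromosome, Col4a5 was expressed while its neighbour Col4a6, whose RefSeq start site lies 1343 bases away on the other strand, was at most 0.0234 FPKM. Col4a5 was at 1.14 and 1.28 FPKM in control cells against 2.06 and 2.001 FPKM in GR siRNA cells. Its 2 GR siRNA values lay above its 2 control values, as for 32.3% of all genes. The ratios were 1.81 and 1.56 and the log2(FPKM + 1) differences 0.52 and 0.39. At this low level the added 1 in that scale lowers the difference, so the chain was not counted at 1.5-fold.

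Col18a1, whose product carries the endostatin fragment at its end, was the third most abundant chain (chromosome 10, 77052178 to 77166548). It was at 237 and 232 FPKM in control cells against 326 and 295 FPKM in GR siRNA cells, which gives ratios of 1.38 and 1.27. The related Col15a1 was at 1.92 and 1.44 FPKM against 2.89 and 2.48 FPKM, with ratios of 1.501 and 1.72. Neither chain had overlapping values between the siRNA arms, and 32.3% of all genes likewise lay higher in both GR siRNA columns. For Col15a1 the control column with DEX was the lowest of the 4. Its log2(FPKM + 1) differences were 0.41 and 0.51. The added 1 lowers them, so this chain too was not counted at 1.5-fold.

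Of the other collagens, the type VI gene Col6a3 was expressed without its partners. Type VI collagen is assembled from the products of Col6a1, Col6a2 and a longer chain, which Col6a3 or a relative encodes. Col6a3 was at 21.5 and 19.96 FPKM in control cells against 27.5 and 24.6 FPKM in GR siRNA cells, with ratios of 1.28 and 1.23. Col6a1 was at 0.269 and 0.144 FPKM in control cells against 0.347 and 0.251 FPKM in GR siRNA cells. Col6a2 was at 0.0739 and 0.0464 FPKM against 0.218 and 0.141 FPKM. In each column Col6a3 thus stood at least 79.2 times above Col6a1 and at least 126 times above Col6a2, per length of transcript. The alternatives to the longer chain, Col6a4, Col6a5 and Col6a6, were at an estimated 1 fragment or fewer in every column.

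The membrane-spanning collagens were represented by Col13a1 and Col23a1. Col13a1 was at 13.9 and 14.2 FPKM in control cells against 20.04 and 19.6 FPKM in GR siRNA cells, with ratios of 1.44 and 1.38. Col23a1 was at 4.47 and 4.41 FPKM against 5.19 and 4.59 FPKM, the smallest difference of the 13 chains without DEX (log2 difference 0.18) and the second smallest with DEX (0.05). Of the others of this group, Col17a1 and Col25a1 did not exceed 0.0362 FPKM.

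Among the 31 chains below 1 FPKM, 19 never exceeded 0.1 FPKM and 9 were listed at 0 in at least 1 column. In 10 of the 31 both GR siRNA columns lay above both control columns, and in 3 both lay below. Of the 6412 genes that stayed below 1 FPKM but were above 0 in at least 1 column, 22.1% and 14.8% had these orders. Only 5 had at least 20 estimated fragments in every column, and they included Col7a1, Col1a1, Col6a1 and Col27a1 as well as Col11a2. Col7a1 was at 0.382 and 0.335 FPKM (about 126 and 158 fragments) in control cells against 0.690 and 0.644 FPKM (about 338 and 256 fragments) in GR siRNA cells, with no overlap. Col12a1 and Col14a1, FACIT chains of connective tissue, were at no more than 0.0789 and 0.137 FPKM.

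Dexamethasone was accompanied by small differences in the chains. In control cells 9 of the 13 chains were lower and 4 higher with DEX, against 52.6% and 47.4% of all genes. None was past 1.5-fold in either direction, where 0.686% of all genes were higher and 0.392% lower. The median difference was −0.02, and the lowest was −0.26, for Col15a1. In GR siRNA cells all 13 were lower with DEX, against 51.9% of all genes (48.1% were higher), with a median of −0.14 and a range of −0.36 to −0.03. None of these passed 1.5-fold either, where 0.531% of all genes were higher and 0.645% lower. Col3a1 had the lowest value, with a ratio of 0.680, followed by Col5a1 with 0.836. For 12 of the 13 chains, Col15a1 being the exception, the GR siRNA difference was smaller with DEX than without. This restates the DEX differences of the 2 arms, since the comparisons use the same 4 columns. In 10 chains the smaller of the 2 GR siRNA differences exceeded the larger of the 2 DEX differences, and Col23a1, Col3a1 and Col4a1 were the exceptions. The share of all genes with either of these 2 orders was not counted, so neither can be read as particular to the collagens.

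**Figure D3:**
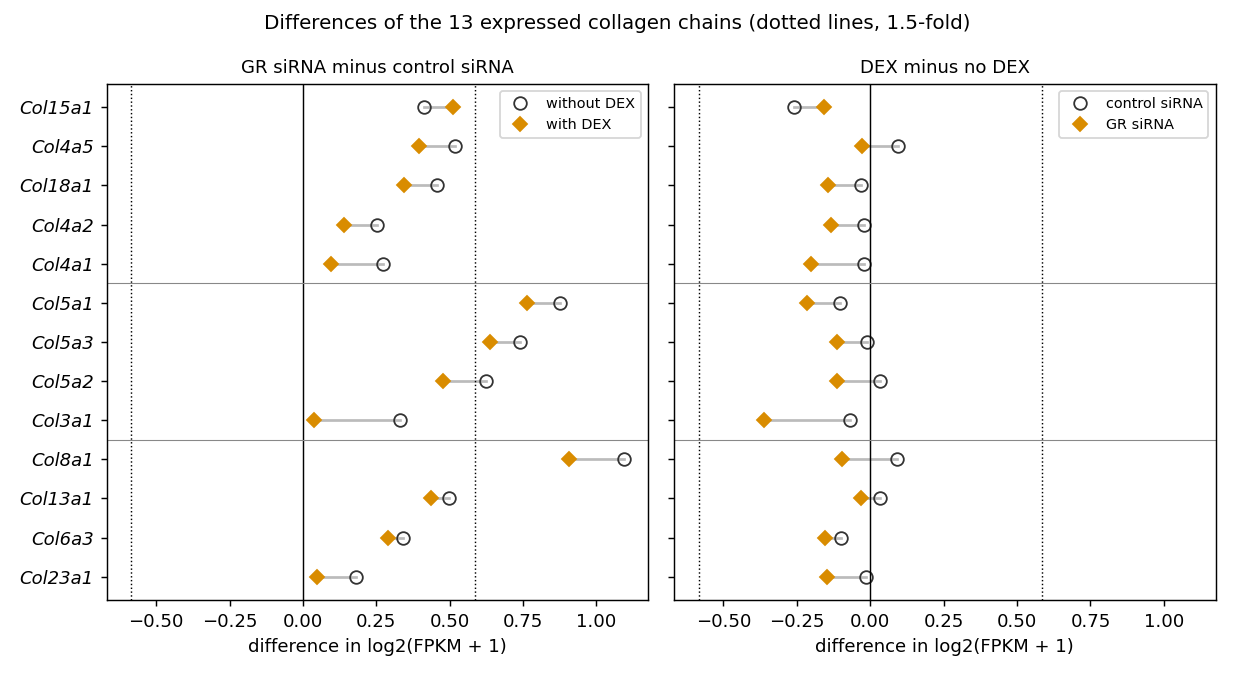
Differences in log2(FPKM + 1) of the 13 expressed chains, grouped as basement membrane, fibrillar and other from top to bottom: GR siRNA cells minus control cells without and with DEX (left) and DEX minus no DEX in each siRNA arm (right). All points of the left panel are above 0, up to 1.09 for Col8a1, while in the right panel the GR siRNA points all lie below 0, down to −0.36 for Col3a1, and none reaches the dotted 1.5-fold lines.

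Genes that build, bind and break down collagen were examined as 7 lists. Members are counted as higher or lower where both GR siRNA columns lay above or below both control columns, an order held by 32.3% and 36.6% of all genes. Genes of the hydroxylation and glycosylation of the chains, not all of them enzymes, had median log2 differences of 0.17 and 0.12, without and with DEX. These medians are over 13 members that reached 1 FPKM, 10 higher and 3 lower. Plod1, a lysyl hydroxylase acting on the helix, was at 52.9 and 53.6 FPKM against 73.7 and 75.5 FPKM. P3h1 and P3h4, listed as Lepre1 and Leprel4 and belonging to the prolyl 3-hydroxylase family, were at 13.8 and 14.8 against 20.8 and 20.5 FPKM and at 7.23 and 8.34 against 11.8 and 11.7 FPKM. Plod2, the lysyl hydroxylase of the chain ends, went the other way, at 16.5 and 16.7 FPKM against 10.2 and 9.96 FPKM.

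Folding and export genes had medians of 0.09 and 0.11 over 14 members, 8 higher and 4 lower. The collagen chaperone gene Fkbp10 was at 37.6 and 39.3 FPKM in control cells against 56.0 and 53.4 FPKM in GR siRNA cells, and Fkbp7 at 22.5 and 25.3 against 30.4 and 35.3 FPKM. Fkbp14, a further prolyl isomerase of the endoplasmic reticulum, was lower, at 38.4 and 36.8 against 21.7 and 22.4 FPKM, as was Trappc2, an export factor, at 27.6 and 27.7 against 15.1 and 15.6 FPKM. Procollagen processing and cross-linking genes had medians of 0.27 and 0.21 over 10 members, 7 higher and 2 lower. Both enhancers of procollagen cleavage were higher: Pcolce was at 2.11 and 1.80 against 4.20 and 3.73 FPKM and Pcolce2 at 11.3 and 12.1 against 20.4 and 19.8 FPKM. The lysyl oxidase Loxl4 was at 15.4 and 13.8 against 21.8 and 23.8 FPKM, whereas the protease Tll1 was at 31.1 and 29.4 against 19.2 and 18.1 FPKM.

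Partners of the basement membrane collagens had medians of 0.38 without and 0.16 with DEX, with 10 of 12 members higher and 1 lower. The laminin chain Lamc1 was at 56.2 and 52.6 FPKM in control cells against 89.7 and 84.9 FPKM in GR siRNA cells. Lama4, a further laminin chain, was at 6.06 and 5.85 against 8.40 and 7.67 FPKM, and Nid2, a nidogen that links laminin to type IV collagen, at 1.88 and 2.25 against 3.59 and 3.44 FPKM. Partners of fibrils had medians of 0.43 and 0.36, with 6 of 7 higher and 1 lower. Elastin (Eln), fibrillin 1 (Fbn1) and fibronectin (Fn1) had log2 differences without DEX of 0.90, 0.54 and 0.43 and with DEX of 0.74, 0.54 and 0.32. Fbn1 and 2 further members, Dcn and Tnxb, reached 1 FPKM only through a GR siRNA column, so they had to lie higher there, and neither the count nor the medians can be read as support. Over the 4 members that reached 1 FPKM in both arms the medians were 0.33 and 0.23, with 3 higher and 1 lower.

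Collagen receptors had medians of 0.01 and −0.01 over 6 members, 2 higher and 1 lower. The receptor kinase Ddr2 was at 15.8 and 14.4 against 19.1 and 18.4 FPKM, and its relative Ddr1 at 1.13 and 0.980 against 1.19 and 1.24 FPKM. The integrin chains Itga2 and Itga1 had log2 differences of −0.26 and −0.10 without DEX and −0.18 and −0.09 with DEX. Degradation genes and their inhibitors had medians of 0.26 and 0.25 over 8 members, 6 higher and 1 lower. Mmp2, a protease of type IV collagen, was at 26.8 and 27.4 against 44.3 and 41.8 FPKM. The protease inhibitors Timp1 and Timp3 had log2 differences without DEX of 0.28 and 0.25 and with DEX of 0.42 and 0.32, and the collagen peptide-cleaving enzyme Pepd 0.34 and 0.21.

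**Figure D4:**
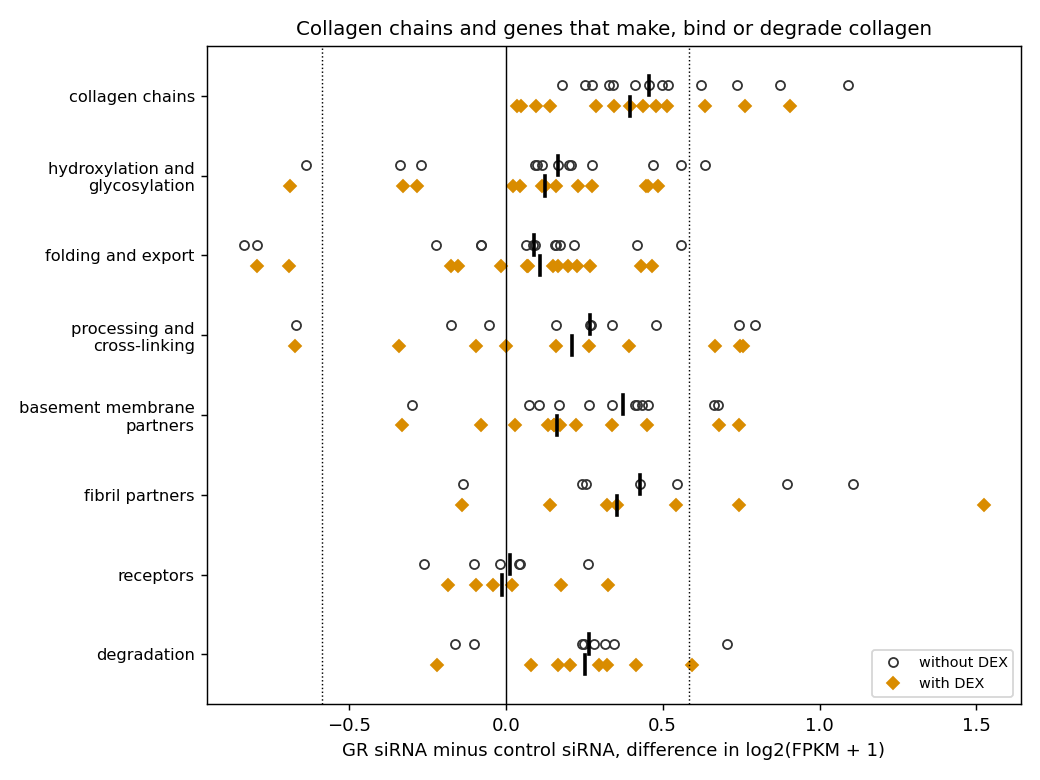
GR siRNA cells minus control cells, as the difference in log2(FPKM + 1), for the 13 expressed collagen chains and the members of 7 lists that reached 1 FPKM; open circles are without DEX, diamonds with DEX, thick bars the medians and dotted lines 1.5-fold. The collagen chains are all above 0 (medians 0.46 and 0.39), and the receptors centre near 0 (0.01 and −0.01).

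Markers of endothelial and other cells were also compared between the arms. Of the 12 endothelial markers, 6 lay lower in both GR siRNA columns and 3 higher, orders held by 36.6% and 32.3% of all genes. Their median log2 differences were −0.05 without and 0.002 with DEX. Their summed levels were 2930 and 2936 FPKM in control cells against 2695 and 2623 FPKM in GR siRNA cells. The largest differences among them were those of Cldn5, Robo4 and Egfl7. Cldn5, a tight junction protein, was at 493 and 525 FPKM against 368 and 332 FPKM, Egfl7 at 521 and 516 against 424 and 410 FPKM, and Robo4 at 22.5 and 22.5 against 30.3 and 28.0 FPKM. Of 10 fibroblast markers, 4 reached 1 FPKM in at least 1 column, Dcn only in GR siRNA cells, so that it had to lie higher there. Of these Cd34, which these endothelial cells express, went the other way, at 242 and 233 FPKM in control cells against 195 and 201 FPKM in GR siRNA cells. With Cd34 the 10 markers summed to 248 and 239 FPKM in control cells against 207 and 215 FPKM in GR siRNA cells. Without it they summed to 5.94 and 6.31 FPKM in control cells against 11.5 and 13.3 FPKM in GR siRNA cells, most of it from Pi16 and Mfap5. Dcn was at 0.387 and 0.297 against 1.99 and 2.73 FPKM, and Pdgfra, a defining fibroblast receptor, at 0.160 and 0.131 against 0.352 and 0.308 FPKM. Lum was at 0.0139 and 0 against 0.131 and 0.104 FPKM, and Postn at 0.160 and 0.259 against 0.209 and 0.294 FPKM. Thy1 was at 0 and 0.0949 against 0.0228 and 0 FPKM, Dpt at 0 and 0.0127 against 0 and 0 FPKM, and Tcf21 at 0 in all 4 columns. Of the type I chains, Col1a1 was at 0.127 and 0.113 against 0.466 and 0.230 FPKM and Col1a2 at 0.0105 and 0 against 0.0141 and 0.0131 FPKM. Of 10 mural cell markers 2 reached 1 FPKM, and the list summed to 15.4 and 13.9 FPKM against 17.8 and 15.6 FPKM, with Acta2 at 5.65 and 5.60 against 8.82 and 7.71 FPKM and Tagln at 8.76 and 7.48 against 7.87 and 7.04 FPKM. Pdgfrb was at 0.200 to 0.282 FPKM and Rgs5 at 0 in all 4 columns. Of 9 leukocyte markers Cd68, which other cells also express, was at 176 and 161 against 194 and 218 FPKM, the other 8 summed to 0.686 to 1.05 FPKM, and Ptprc was at 0 in all 4 columns. Of 9 epithelial markers, which summed to 7.63 to 8.60 FPKM, Krt18 was at 3.16 to 4.48 FPKM, Ager at 2.43 to 3.10 FPKM, Sftpb at 0.663 to 1.13 FPKM and Epcam at no more than 0.0116 FPKM. The mesothelial marker Msln did not exceed 0.905 FPKM, and Lyve1, a lymphatic and capillary marker, was at 373 and 348 against 191 and 192 FPKM. The part of these cells in the collagen differences was not tested, and in a culture more cells of a type cannot be told apart from more RNA per cell.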

How the data were processed

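RNA sequencing of 4 samples, 1 per condition, was read from 1 table of 23997 genes. The values are FPKM per gene as the authors deposited them; TopHat2, Cuffdiff and mm10 are named per the submitters' processing notes, while software versions, gene annotation, strand setting and how replicates were combined were not given in the sources used here. The 4 column names match 1 sample each.

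Differences were taken on log2(FPKM + 1) for genes that reached 1 FPKM in either column, counted at 1.5-fold; this scale understates low genes. The limma fit foreseen for replicate columns could not be used. Depth was estimated from genes below 0.1 FPKM: 304 of 1450 values in genes with 1 annotated transcript of at least 2000 nt lay at the most frequent fragment size, and fragments per chain use the longest coding transcript, so they are approximate. Coordinates and 31-mers come from GENCODE M21 (mm10); at most 4.31% of the 31-mers of any collagen chain occur in another gene. The counting step was tested on simulated data, with changes of 2-fold or more put into genes at 5 FPKM or more. That test does not cover lower genes or smaller differences, such as those of Col4a5, Col15a1 and Col3a1. Software was pandas 2.3.3, numpy 2.4.6 and scipy 1.17.1.

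The members, classes and lists were chosen with earlier results of these data known. Named were all chains of at least 1 FPKM, up to 4 genes of each pathway list with the largest GR siRNA differences, and defining markers. Lum, Tcf21, Postn, Thy1, Dpt, Cd34, Cd68, Cldn5, Egfl7, Robo4, Tagln, Krt18, Ager, Sftpb, Rgs5, Pi16, Mfap5, Tnxb and the low chains given singly were chosen after their values were seen. 1 gene that this rule names is not reported here. P3h1 to P3h4 and Colgalt1 were found by synonym. Alternatives were other expression levels, pseudocounts, filters, folds, scalings and a type IV class.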

Additional observations from a re-analysis of the deposited data

Results flagged for a closer look

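The difference with DEX had opposite signs in the 2 siRNA arms for 4 of the 13 expressed chains, slightly higher with control siRNA and slightly lower with GR siRNA. With 1 column per condition these differences between arms were not tested. The share of all genes with opposite signs was not counted, so the 4 cannot be read as particular to the collagens. Over all genes, 47.4% were higher with DEX in control cells and 48.1% in GR siRNA cells. The DEX difference with GR siRNA minus that with control siRNA, on the log2(FPKM + 1) scale, was −0.19 for Col8a1, −0.15 for Col5a2, −0.12 for Col4a5 and −0.062 for Col13a1.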

How the results depend on the processing

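With 1 column per condition no replicate could be left out. No paired analysis was possible because each condition has 1 column and all 4 samples carry the same replicate number. An alternative was counted as moving a median when it differed by 0.1 or more on the log2 scale. Upper quartile and median log ratio rescaling, whose counts of signs were added after seeing the data, left the counts of chains higher in each comparison at 13, 13, 4 and 0 and moved no median or count that far. At 2 FPKM, 3 basement membrane chains were counted in each control siRNA column in place of 5. Of all 44 chains, 10 and 10 reached 2 FPKM in control cells against 13 and 12 in GR siRNA cells. At 0.5 FPKM the counts were 13 and 13 against 14 and 14. The absence of a crossing between the arms thus holds at 1 FPKM only. At 2-fold, 1 chain was higher with GR siRNA without DEX and 0 with DEX. With a pseudocount of 0.1, 5 were 1.5-fold higher without DEX and 5 with DEX. The shares of all genes at other FPKM levels, at 2-fold and at that pseudocount were not counted. These counts therefore cannot be read as particular to the collagens.

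With no filter, which brings in the 31 chains near 0, the median for GR siRNA minus control cells without and with DEX was 0.019 and 0.031 for all chains, 0.26 and 0.12 for basement membrane, 0.10 and 0.037 for fibrillar and 0.014 and 0.0030 for other chains; for DEX in GR siRNA cells it was −0.022 for all, −0.064 for fibrillar and −0.011 for other chains. The basement membrane medians without and with DEX were 0.27 and 0.14 at 5 FPKM, and also 0.27 and 0.14 for type IV chains only. The larger differences of that class are those of Col15a1, Col18a1 and Col4a5. The 5 FPKM filter leaves out Col15a1 and Col4a5, and the type IV class leaves out Col15a1 and Col18a1. A filter added after seeing the data, 1 FPKM in at least 1 column of each arm, took 3 members from the fibril partners (medians 0.33 and 0.23 in place of 0.43 and 0.36) and none from the other 6 pathway lists. Among the marker lists it took 1 fibroblast and 1 epithelial marker. Depth limits the chains below 1 FPKM, of which 5 of 31 had 20 or more estimated fragments in every column.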
